A study of Mus musculus with 4 samples.

Results

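The 10 genes described here encode membrane proteins and enzymes of young erythroid cells, and they were followed within and outside erythroid progenitors of the bone marrow. They are Car1, Car2, Ermap, Aqp1, Blvrb, Rhag, Tspo2, Atp1b2, Slc25a21 and Sphk1, and they were taken by name from the 13978 gene symbols of the deposited matrix, where all 10 were measured. Ermap, Tspo2, Atp1b2, Slc25a21 and Sphk1 were selected on their folds over all cells of these data, which were among the lowest of the matrix, and the other names were chosen with these data in view. Every level and fold below is therefore a description and carries no test.

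The cells came from wild-type CD45.1 mice that had been given either PBS or, by vein, 150000 primary leukemia cells 3 weeks earlier. The leukemia cells were from the lymph node of a CD45.2 mouse with a loss of 1 copy of Ebf1 and 1 copy of Pax5, transcription factors of the B lineage, and the recipients model B-cell acute lymphoblastic leukemia (B-ALL) with cells of 1 donor tumor, LN768. Host cells were sorted as KIT+, lineage negative, CD45.1+ and CD45.2- and sequenced from the 3' end in droplets, which addresses how the host's own progenitors differ in a leukemic marrow. The labels name 2 samples in each group, PBS control and B-ALL environment, but the cells carry no sample number, so each group was 1 pooled sample of 5882 cells. The spread between mice is therefore unknown and p-values are not given. Intervals in brackets are 95% intervals for counting error alone. Neither the age of the mice nor their number per sample was given in the sources used here.

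Captured RNA molecules were counted as unique molecular identifiers (UMIs), 68391214 in the PBS control (median per cell 10189) and 76059014 in the B-ALL environment (median per cell 10458). The mitochondrial genome gave 3.56 and 5.14% of these UMIs. Between the groups, 18 cell barcodes were shared.

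Red cell precursors that have left the stem cell stage build the red cell's gas and water transport, its surface antigens and its enzymes before haemoglobin dominates. Carbonic anhydrases convert carbon dioxide and water to bicarbonate, Aqp1 passes water, and Rhag sits in the Rh complex of the red cell membrane. Ermap is an erythroid membrane protein of the butyrophilin-like kind that carries blood group antigens, and Tspo2 is a red cell relative of the translocator protein. Among the enzymes and carriers, Blvrb is a cytosolic biliverdin and flavin reductase, Atp1b2 is a beta subunit of the sodium pump, Slc25a21 is a mitochondrial carrier of dicarboxylates from lysine and tryptophan breakdown, and Sphk1 makes sphingosine 1-phosphate. GATA1, the main erythroid transcription factor, binds short sites with the core letters GATA.

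The 10 genes lie at 10 separate loci on 7 chromosomes (GENCODE vM21, GRCm38, the mm10 assembly). Car1 at chr3:14766216-14808368 and Car2 at chr3:14886273-14900770 lie close together on opposite strands, and Rhag at chr17:40811126-40840754 and Tspo2 at chr17:48447907-48451522 share a chromosome, as do Sphk1 at chr11:116530925-116536674 and Atp1b2 at chr11:69599736-69605942. Ermap is at chr4:119175457-119190011, Aqp1 at chr6:55336432-55348555, Blvrb at chr7:27447978-27466144 and Slc25a21 at chr12:56712634-57197472. Each is annotated as protein coding.

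Because these genes were low together in the B-ALL environment, the 250 bases before their start sites were searched for AGATAA or TGATAA on both strands. RefSeq windows (GRCm38.p6) were matched for 7 of the 10 genes, in 13 windows, and the letters were present in windows of 3 genes, Ermap, Rhag and Sphk1. Over all genes with a window the letters were present in 18.8% of 27025 genes (16.6% of 32851 windows). The 3 windows are printed because their genes differ in behaviour, Ermap and Sphk1 being low and Rhag high in erythroid cells of the B-ALL environment. Each window is read on the strand of its gene with the match in capitals, where TTATCA and TTATCT are TGATAA and AGATAA of the other strand. Counted in bases from the start site to the first base of the match, it lies at -67 for Ermap (chr4:119189996-119190245, minus strand), at -31 for Rhag (chr17:40810899-40811148, plus strand) and at -124 for the Sphk1 start shown (chr11:116532194-116532443, plus strand). Sphk1 has 5 annotated windows, and the match lies in 2 of them, which overlap. A match is a run of letters and not a measured site.
Ermap: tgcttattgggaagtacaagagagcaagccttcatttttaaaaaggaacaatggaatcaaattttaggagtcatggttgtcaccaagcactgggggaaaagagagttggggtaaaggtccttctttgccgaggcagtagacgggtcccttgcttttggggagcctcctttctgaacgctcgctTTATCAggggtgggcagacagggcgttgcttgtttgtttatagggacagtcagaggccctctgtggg
Rhag: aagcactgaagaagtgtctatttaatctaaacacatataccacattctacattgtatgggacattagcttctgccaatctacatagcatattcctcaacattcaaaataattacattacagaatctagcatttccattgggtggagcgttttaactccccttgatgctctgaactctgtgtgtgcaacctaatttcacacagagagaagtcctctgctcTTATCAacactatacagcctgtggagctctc
Sphk1: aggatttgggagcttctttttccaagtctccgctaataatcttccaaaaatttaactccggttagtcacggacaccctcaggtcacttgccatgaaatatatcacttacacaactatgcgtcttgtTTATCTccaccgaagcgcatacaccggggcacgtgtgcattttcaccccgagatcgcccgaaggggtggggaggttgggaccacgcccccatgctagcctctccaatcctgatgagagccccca

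Erythroid progenitors were found by clustering the cells on the authors' own two-dimensional map and naming clusters from 15 erythroid markers, none of them among the 10 genes. One cluster of 14, called erythroid-like, had 13 of the 14 measured markers in at least 10% of its cells, and its leading genes were Car1, Ermap, Mt2, Blvrb, Slc25a21, Tspo2, Aqp1, Ces2g, Klf1 and Rhd. Since 6 of the 10 genes were among these leading genes, their height in the class is part of its definition and no finding. The class held 921 control cells, 15.7% (14.7 to 16.6%), and 227 cells of the B-ALL environment, 3.86% (3.38 to 4.38%), so the ratio of shares was 0.246 (0.212 to 0.285). The class was named from these markers, so their height in it is no separate support for the name. Klf1, the erythroid master regulator, was at 244 and 194 CPM (UMIs per library of a fixed common size), against 19.2 and 8.32 CPM outside. Not every marker was high: Alas2 in the control was at 0.599 CPM in the class and 0.516 CPM outside.

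Within erythroid-like cells 9 of the 10 genes were lower in the B-ALL environment than in the control, and Rhag alone was higher. The genes lower by at least 2-fold were 5 of 10, namely Ermap, Aqp1, Atp1b2, Slc25a21 and Sphk1. Of all 11462 genes tested in these cells, 4.33% were at least 2-fold lower. The median log2 fold (B-ALL environment over control) was -1.12 for the 10 genes and -0.00 for all genes. Since the genes were chosen with this contrast in view, nothing is read from the difference between these shares.

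Among the proteins of the cell surface, Ermap went from 458 CPM in control to 174 CPM in B-ALL environment erythroid-like cells, a log2 fold of -1.39 (-1.51 to -1.28). The water channel gene Aqp1 went from 329.7 to 139 CPM, -1.25 (-1.38 to -1.12) on the log2 scale. The pump subunit gene Atp1b2 was at 165 CPM and 67.5 CPM, -1.29 (-1.48 to -1.10). All 3 were thus 2.38- to 2.63-fold lower, and none of their intervals reached 0. Tspo2 differed less, with 239 CPM in the control and 149 CPM in the B-ALL environment, -0.68 (-0.81 to -0.55). Rhag went the other way, from 41.7 CPM on 557 UMIs to 78.8 CPM on 307 UMIs, a log2 fold of 0.92 (0.71 to 1.12).

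Of the enzymes and the carrier, Sphk1 had the lowest fold of the 10, from 101 CPM in the control to 32.6 CPM in the B-ALL environment, -1.63 (-1.90 to -1.37). The mitochondrial carrier gene Slc25a21 went from 141 to 57.5 CPM, -1.30 (-1.50 to -1.10). Blvrb was at 1030.5 and 520.3 CPM, a fold of -0.99 (-1.05 to -0.92) that lay just short of 2-fold. Both carbonic anhydrase genes were lower by less than 2-fold. Car1 was at 4087 and 2438 CPM, -0.75 (-0.78 to -0.71), and Car2 was at 2181 and 1664 CPM, -0.39 (-0.43 to -0.35).

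**Figure D1:**
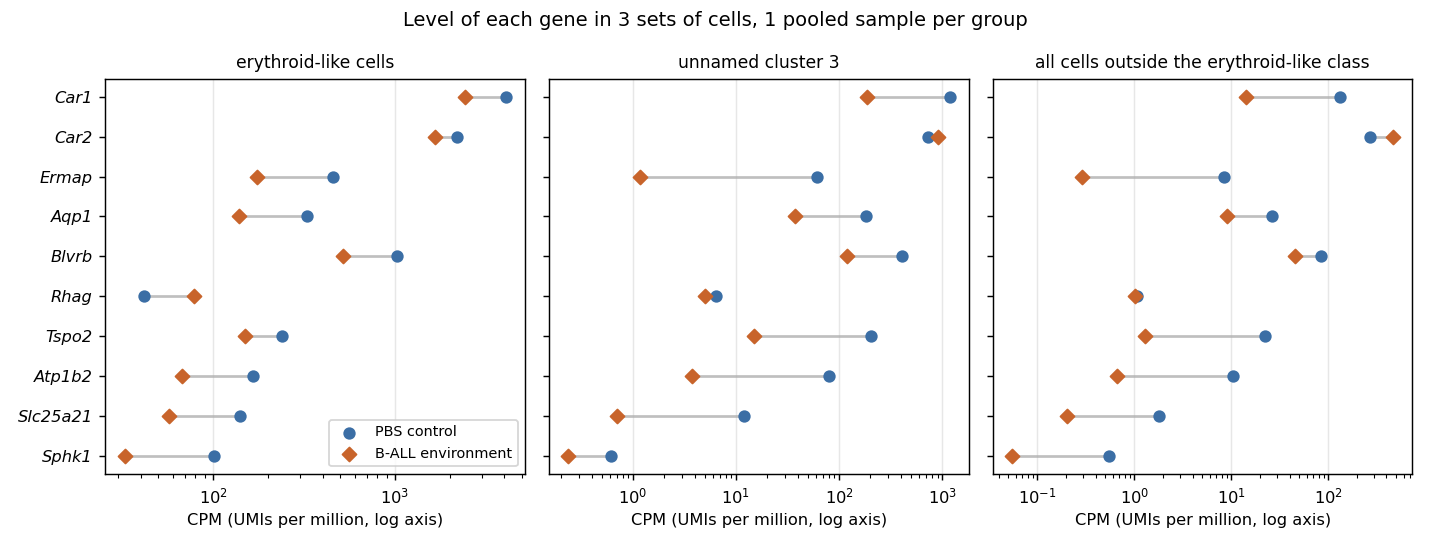
Level of each gene in CPM on log axes in erythroid-like cells, in unnamed cluster 3 and in all cells outside the erythroid-like class, each axis with its own range; circles are the PBS control and diamonds the B-ALL environment, each 1 pooled sample. Rhag is the only gene to the right of the control in erythroid-like cells (41.7 to 78.8 CPM), and the widest gap in cluster 3 is that of Ermap (61.8 to 1.18 CPM).

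The lower sums came with fewer cells that held the RNA. Ermap had a UMI in 93.8% (92.1 to 95.3%) of control erythroid-like cells, against 43.6% (37.1 to 50.3%) in the B-ALL environment. For Atp1b2 these shares were 83.9% and 37.9%, and for Sphk1 44.8% and 19.4%. Car2 was in nearly every cell of both groups, 99.6% and 99.1%, while Car1 went from 98.6% to 85.9%. Rhag was in 31.8% (28.8 to 34.9%) and 44.1% (37.5 to 50.8%) of cells. Median UMI counts of erythroid-like cells were 12354 in the control against 13969 in the B-ALL environment.

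Every cell was also thinned to 3000 UMIs, which left out 0 control and 2 B-ALL environment cells of the class. The share with an Ermap UMI was then 69.4% in the control against 22.2% in the B-ALL environment, and the share with a Blvrb UMI 91.2% and 58.7%. For Rhag the thinned shares were 8.47% (6.75 to 10.5%) and 13.3% (9.18 to 18.5%), with overlapping intervals. In monocyte progenitor-like cells, which should lack Ermap and whose median depth was 15235 and 18564 UMIs, Ermap had a UMI in 2.56% of control cells and 0.261% of B-ALL environment cells as deposited. The erythroid-like shares of both groups were far above these shares, which is no finding, since Ermap was a leading gene of the class.

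The 10 genes were counted together in each thinned cell. A control erythroid-like cell held a median of 6 of the 10 genes (mean 5.65) and one of the B-ALL environment a median of 3 (mean 3.56). At least 5 of the 10 were found in 741 of 921 control cells, 80.5% (77.7 to 83%), and in 62 of 225 cells of the B-ALL environment, 27.6% (21.8 to 33.9%). With the UMIs as deposited the means were 8.06 and 5.88. The 10 genes made up a median of 0.77% of a control erythroid-like cell's UMIs and 0.416% in the B-ALL environment.

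**Figure D2:**
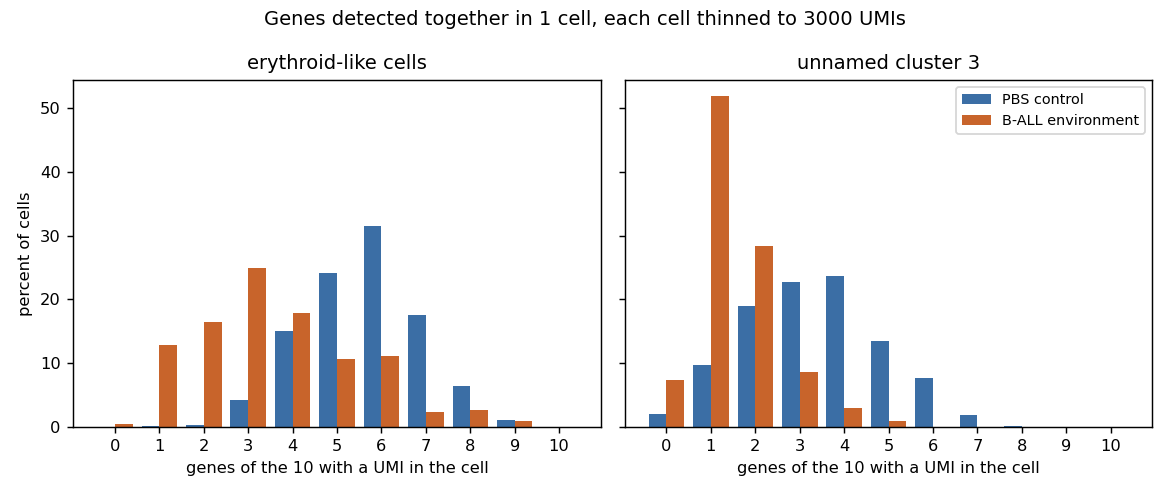
Percent of cells by the number of the 10 genes with a UMI, each cell thinned to 3000 UMIs, in erythroid-like cells (left) and in unnamed cluster 3 (right); bars are the PBS control and the B-ALL environment. The control distribution centres on 6 genes in erythroid-like cells and that of the B-ALL environment on 3, and in cluster 3 the medians are 3 and 1.

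The size of the difference varied with where in the erythroid-like class a cell lay. The class was divided further into 4 subclusters, which took similar shares of the class in both groups: 33.6% (control) and 29.5% (B-ALL environment) for subcluster 16, 39.7% and 38.8% for subcluster 11, 15.6% and 15.4% for subcluster 23, and 11.1% and 16.3% for subcluster 6. Subcluster 16 was led by globin genes such as Hbb-bs and Hba-a1 and had the deepest cells, with median UMI counts of 21004 and 26680. There 1 of 10 genes was at least 2-fold lower (4.91% of 10276 tested genes), the median log2 fold was -0.54, and Sphk1 had the lowest fold, -1.31 (-1.59 to -1.04). In this subcluster Ermap was at 513 and 314 CPM, -0.71 (-0.84 to -0.58), and Rhag at 62.4 and 131 CPM, 1.07 (0.83 to 1.30).

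In the other 3 subclusters more of the genes were at least 2-fold lower. The median share of a cell's UMIs from erythroid markers moved with this: it was 0.14% in the control and 0.125% with B-ALL in subcluster 16, 0.113% and 0.0728% in subcluster 11, 0.118% and 0.0651% in subcluster 23, and 0.115% and 0.0806% in subcluster 6. Its part in the folds was not tested. Subcluster 11, led by Apoe and Vim, had 6 of 10 genes at least 2-fold lower (4.87% of 10203 genes) and a median of -1.69. Its Atp1b2 level went from 169.7 to 20.6 CPM and its Sphk1 level from 41.6 CPM on 185 UMIs to 3.05 CPM on 4 UMIs. Rhag was higher here as well, at 19.6 and 42 CPM, 1.10 (0.59 to 1.60). Subcluster 23, led by Csrp3, had 7 of 9 tested genes at least 2-fold lower (7.71% of 7924 genes), and subcluster 6, led by Ifitm1 and Ctla2a, likewise 7 of 9 (5.0% of 8456 genes), with medians of -1.51 and -1.65. Ermap nearly vanished in both. In subcluster 23 it had 331 UMIs in 144 control cells against 1 in 35 cells of the B-ALL environment. In subcluster 6 it had 329 UMIs in 102 control cells against 5 in 37. Sphk1 had 11 and 0 UMIs in subcluster 6, at least 1.53-fold lower against a limit of 3 UMIs. The Rhag intervals of these 2 small subclusters included 0, at 0.08 (-1.38 to 1.34) and -0.32 (-1.94 to 1.08).

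A second ordering was by marker share. All cells of each group were placed by the share of their UMIs that came from the 14 measured erythroid markers, in bins chosen after the data were seen. Between 0.06 and 0.12%, with 898 control and 378 B-ALL environment cells, 8 of 10 genes were at least 2-fold lower (4.29% of 11685 genes) and the median log2 fold was -1.70. Between 0.12 and 0.24%, with 693 and 61 cells, the count was 0 of 10 (7.41% of 10742 genes) and the median -0.59. The cells of a bin were not the same mix in both groups: in the lower of these bins 43.5% of control cells against 29.4% of the cells with B-ALL were of the erythroid-like class, and in the upper 68.4% and 67.2%. The part of this mix in the folds was not tested. Ermap illustrates the change, with 250.3 and 45.4 CPM in the lower of these bins (-2.46) and 429 and 259 CPM in the upper (-0.73). Atp1b2 moved from -2.68 to -0.30 in the same step. Rhag, by contrast, was at 18.5 and 20.2 CPM in the lower bin, 0.13 (-0.25 to 0.51), and at 42.1 and 118 CPM in the upper, 1.48 (1.18 to 1.78). Above 0.24% only 24 and 20 cells remained, and the median was -0.16.

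**Figure D3:**
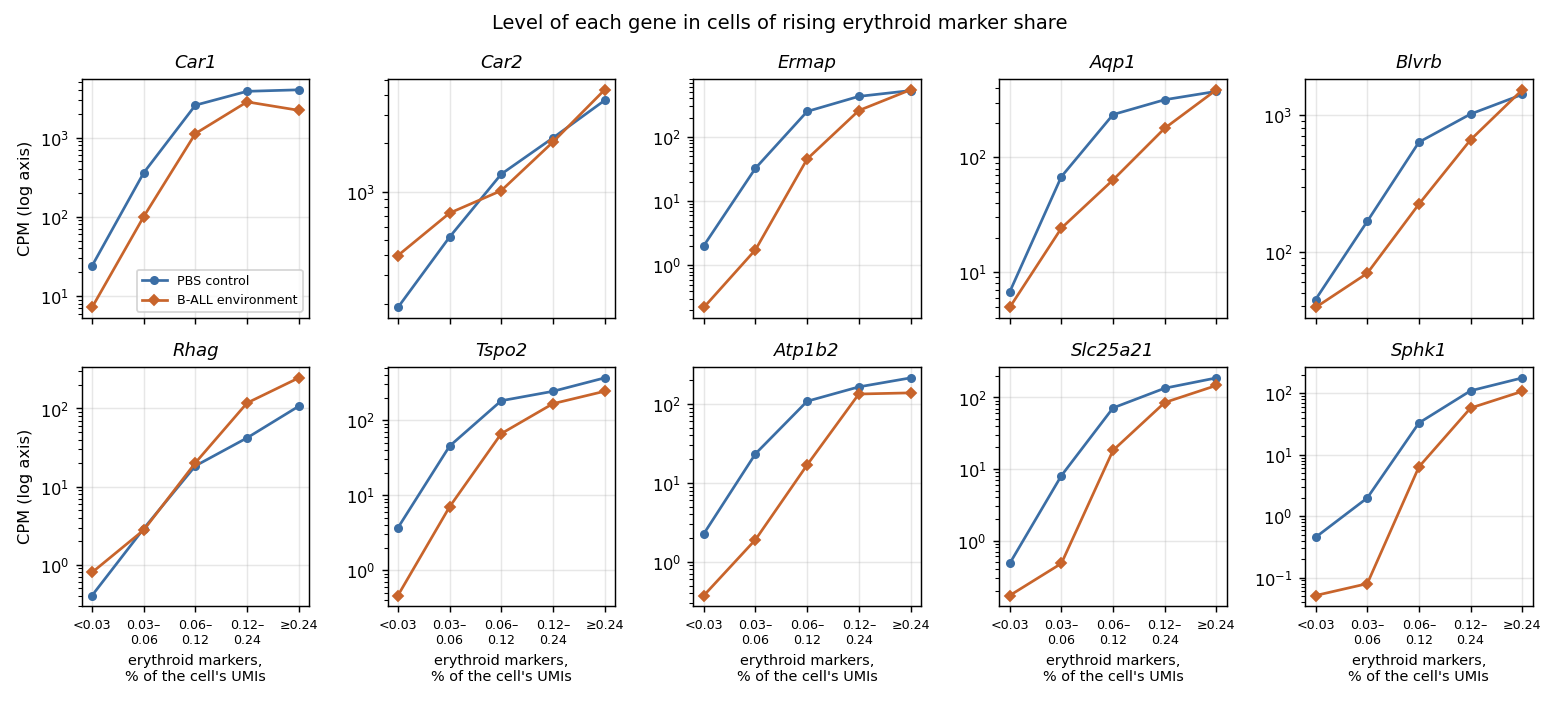
Level of each gene (CPM, log axis) against the share of a cell's UMIs from 14 erythroid markers, in 5 bins over all cells, with circles for the PBS control and diamonds for the B-ALL environment. The gap of Ermap narrows from -2.46 to -0.73 between the third and the fourth bin, Car2 is higher in the B-ALL environment below 0.06% (189 against 399 CPM in the lowest bin), and Rhag is nearly level in the second and the third bin and higher in the B-ALL environment above 0.12%.

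Unnamed cluster 3 was led by genes that included St8sia6, Mfsd2b, Apoe and Gata2, and its best enrichment, for erythroid markers, was 0.456, under the 0.5 needed for a name. It held 745 control cells (12.7%) and 449 of the B-ALL environment (7.63%), and the ratio of shares was 0.603 (0.535 to 0.679). Of 9 genes tested there, 7 were at least 2-fold lower in the B-ALL environment (5.22% of 11357 genes), with a median log2 fold of -2.67. Ermap went from 61.8 CPM on 299 UMIs to 1.18 CPM on 5 UMIs, -5.71 (-7.34 to -4.47). Atp1b2 was at 79.9 and 3.78 CPM, -4.40 (-5.23 to -3.69), and Tspo2 at 204 and 14.9 CPM, -3.78 (-4.17 to -3.41). Both folds lay further below 0 than within the erythroid-like class, a difference that was not tested. Slc25a21 had 58 and 3 UMIs, a log2 ratio of -4.08 (-6.40 to -2.46), and Sphk1 3 and 1, too few to be tested.

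Car1, Aqp1 and Blvrb were lower in cluster 3 by 6.37-, 4.82- and 3.4-fold, with Car1 at 1183 CPM in the control and 186 CPM in the B-ALL environment. Car2 was higher, at 727 and 918 CPM, 0.34 (0.27 to 0.40), and the Rhag interval included 0, -0.37 (-1.24 to 0.48). A Car1 UMI was found in 77.7% of the cluster's control cells and 24.3% of its B-ALL environment cells (71.1% and 18.2% when thinned). At least 5 of the 10 genes were in 23.1% (20.1 to 26.3%) of thinned control cells and 0.922% (0.252 to 2.34%) of those of the B-ALL environment. Median depth was 5534 UMIs for control cells and 8299 for those of the B-ALL environment. The median share of UMIs from erythroid markers was lower as well, at 0.0836% in the control against 0.0478% in the B-ALL environment.

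Over all cells outside the erythroid-like class, cluster 3 included, 7 of the 10 genes were at least 2-fold lower (3.92% of 13964 genes), and the median log2 fold was -3.19 against 0.00 for all genes. Most control Car1 UMIs outside the class were those of cluster 3, 5727 of 7282. Car1 outside the class was at 134 CPM in the control and 14.1 CPM in the B-ALL environment, -3.25 (-3.34 to -3.15). For Ermap the levels were 8.39 and 0.287 CPM, for Tspo2 22.4 and 1.28 CPM, and for Atp1b2 10.5 and 0.67 CPM, log2 folds of -4.87, -4.12 and -3.97. Slc25a21 and Sphk1 were nearly confined to the class in both groups, with 95.1% and 97.8% of their control UMIs in it and 93.7% and 96.9% with B-ALL, and outside they had 97 and 30 control UMIs against 15 and 4. Rhag did not differ beyond counting error outside the class, -0.06 (-0.57 to 0.46). Markers of other cell types moved outside the class as well, given here as control against B-ALL environment. Summed B cell markers (4 of 9 measured) were at 50.9 against 366 CPM, HSC markers at 603 against 1081 CPM, neutrophil progenitor markers at 13704 against 7847 CPM, monocyte progenitor markers at 977 against 635 CPM, basophil and mast cell markers (7 of 10 measured) at 333 against 167 CPM and the erythroid markers at 220.0 against 182 CPM. The part of these shifts in the folds outside the class was not tested.

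**Figure D4:**
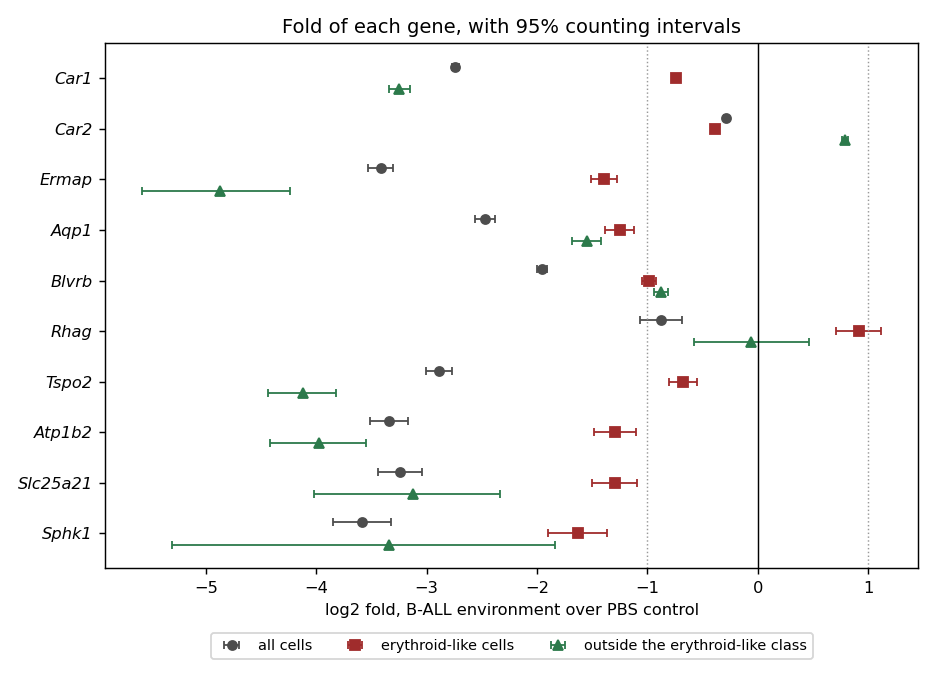
Log2 fold of each gene, B-ALL environment over PBS control, in all cells (circles), in erythroid-like cells (squares) and outside that class (triangles), with 95% counting intervals; dotted lines mark 2-fold. Car2 lies below 0 within the class (-0.39) and above 0 outside it (0.79), and Rhag lies above 0 within the class (0.92) alone.

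In the named classes that are not erythroid, Car1 and Ermap were far below their erythroid-like levels, and lower in the B-ALL environment than in the control. Car1 in the control was at 23.4 CPM in monocyte progenitor-like, 22.8 in hematopoietic stem cell (HSC)-like, 22.8 in multipotent progenitor-like and 25.6 in neutrophil progenitor-like cells. The same order of classes gave, for the B-ALL environment, 0.638, 2.05, 1.52 and 3.64 CPM. Lymphoid-primed-like cells had 29.98 CPM of Car1 in the control against 1.12 CPM, megakaryocyte-like cells 34.4 against 4.19 CPM, and basophil and mast cell-like cells 92.7 against 28 CPM. In droplet data free RNA can give such low levels in cells that do not express a gene, and its part in these levels and in the folds outside the class was not tested. Ermap lay between 1.56 and 3.25 CPM over the 7 other named classes in the control and between 0 and 0.368 CPM in the B-ALL environment. Tspo2 in monocyte progenitor-like cells had 26 control UMIs and 0 in the B-ALL environment, at least 7.31-fold lower against a limit of 3 UMIs. For comparison, Car1 was 175 times and Ermap 177 times its monocyte progenitor-like level in control erythroid-like cells. Both were leading genes of the erythroid-like class, so this height is no finding.

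Some levels outside were higher than those of monocyte progenitor-like cells. Aqp1, the water channel, was at 68.6 CPM in control and 30.4 CPM in B-ALL environment megakaryocyte-like cells, -1.18 (-1.40 to -0.96), against 3.98 and 0.383 CPM in monocyte progenitor-like cells. In basophil and mast cell-like cells Atp1b2 was at 49.3 and 12.1 CPM, -2.03 (-2.82 to -1.30), and Tspo2 at 39.6 and 7.0 CPM, -2.50 (-3.56 to -1.57). Blvrb in the same class was at 186 and 103 CPM. In multipotent progenitor-like cells Blvrb was at 48.2 and 48.7 CPM, 0.02 (-0.24 to 0.27), while in HSC-like cells it was slightly lower, -0.32 (-0.51 to -0.13). Rhag in megakaryocyte-like cells had 5 and 34 UMIs, 1.10 (-0.26 to 2.82).

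Car2 stood apart from the other 9 genes. In the control 66.3% of its UMIs were in the erythroid-like class, and in the B-ALL environment 15.8%. In HSC-like cells it had 835 and 901 CPM, 0.11 (0.05 to 0.16), and in megakaryocyte-like cells 759 and 877 CPM, 0.21 (0.15 to 0.26). Levels were lower in lymphoid-primed-like cells, 274 and 375 CPM, and, among the named classes, lowest in monocyte progenitor-like cells, 40.4 and 43.1 CPM. The highest folds among the named classes were in basophil and mast cell-like cells, 0.84 (0.64 to 1.04), and in multipotent progenitor-like cells, 0.60 (0.51 to 0.69). Over all cells outside the erythroid-like class Car2 went from 273 to 471 CPM, 0.79 (0.76 to 0.82), against -0.39 within it. The outside value also mixes cell numbers, since HSC-like cells went from 517 to 1414 and megakaryocyte-like cells from 482 to 913, both high in Car2, while the folds within the named classes lay between 0.10 and 0.84. Ranked by control level, HSC-like and megakaryocyte-like cells came next after erythroid-like cells (2181 CPM), and no spread between mice was available to say which neighbours in this order differ.

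**Figure D5:**
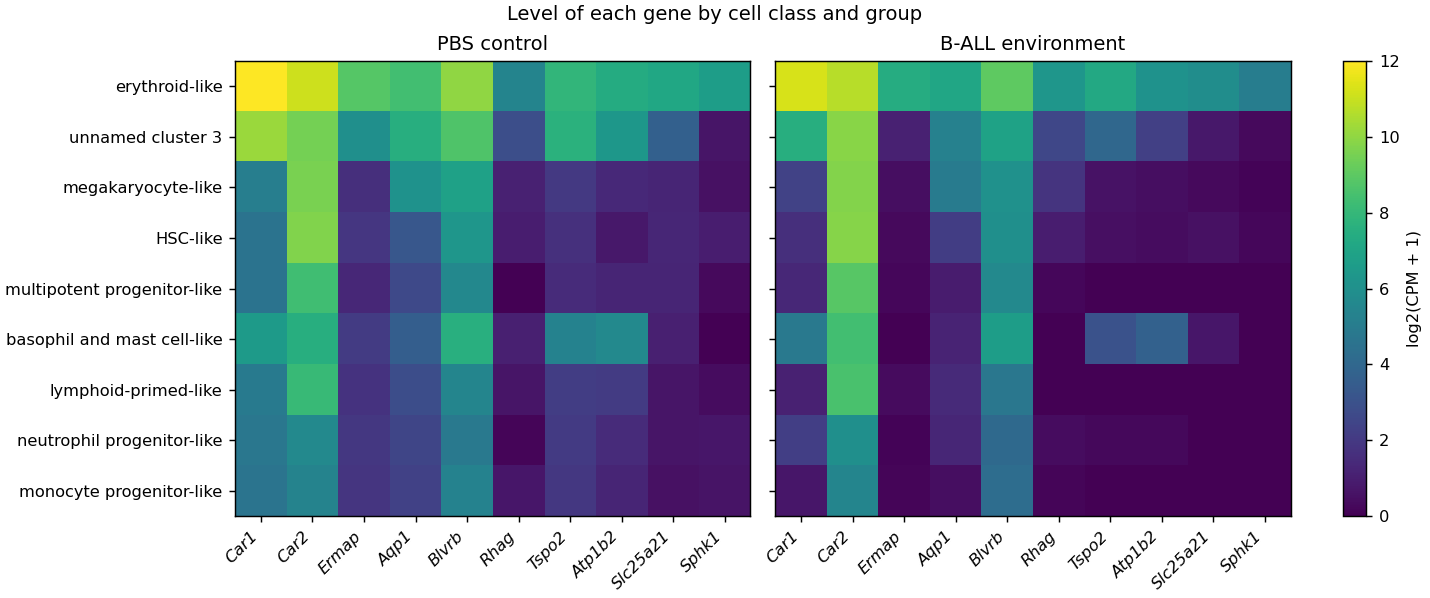
Level of each gene as log2(CPM + 1) in the erythroid-like class, unnamed cluster 3 and the 7 other named classes, PBS control on the left and B-ALL environment on the right. In both groups Car2 extends over HSC-like (835 and 901 CPM) and megakaryocyte-like cells, whereas in cluster 3 the values of Ermap, Tspo2 and Atp1b2 are reduced in the B-ALL environment.

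Over all cells, 8 of the 10 genes were at least 2-fold lower in the B-ALL environment (4.0% of 13978 genes), and the median log2 fold was -2.82. Sphk1 had the lowest fold, 20.4 to 1.7 CPM, -3.58 (-3.85 to -3.32), followed by Ermap at 97.1 and 9.09 CPM, -3.42 (-3.53 to -3.30). Car2 and Rhag were the 2 genes within 2-fold, at -0.29 (-0.31 to -0.27) and -0.88 (-1.06 to -0.69). This sum mixes how many erythroid cells there were with how much of each RNA they held, so the difference in CPM was divided arithmetically between cluster shares and levels within clusters. Class shares accounted for 62.5% of the Car1 difference, 52.8% of the Ermap difference, 41.8% for Aqp1 and 52% for Sphk1, the rest being levels. For Car2 the shares made up 99%. Its level part, -1.01 CPM, pooled folds of both signs: -0.39 within the erythroid-like class and 0.10 to 0.84 in the other named classes. For Rhag the share part (-8.51 CPM) and the level part (4.54 CPM) had opposite signs, with a total of -3.97 CPM. With both groups given the same mean class shares, the log2 fold was -1.52 for Ermap, -0.93 for Car1, -0.00 for Car2 and 0.81 for Rhag.

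Other genes of the same pathways were counted in the same erythroid-like cells. Of 22 tested genes of the red cell membrane and its skeleton, 1 was at least 2-fold lower and 6 at least 2-fold higher (5.56% of all tested genes were at least 2-fold higher), with a median of 0.26. Kel, which carries the Kell blood group, went from 58.2 to 23.3 CPM (-1.32), and Rhd, the Rh protein that pairs with Rhag, from 106 to 68.2 CPM (-0.64). Sptb, a beta spectrin of the membrane skeleton, was higher, from 8.47 to 33.4 CPM (1.98). Part of these UMIs lay in a few cells rich in globin or Igkc RNA, of which the class held 1 control cell and 7 cells of the B-ALL environment. Without them Sptb was at 1.70 and Kel at -1.62, and 3 membrane genes were at least 2-fold lower and 3 higher. The count for the 10 genes was 6 of 10 without these cells. The share of all tested genes past 2-fold without them is not reported here, so nothing is read from such counts.

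Of 16 erythroid transcription factors, 0 were at least 2-fold lower and 1, Sox6, was higher, from 5.77 to 22.3 CPM (1.95). Gata2, a factor of early progenitors, was at 169 and 267 CPM (0.66), and Gata1 at 169 and 156 CPM (-0.11), with a median of -0.11 for the list. Of 10 genes of erythropoietin signalling and iron entry, none passed 2-fold in either direction: the transferrin receptor gene Tfrc was at 153 and 234 CPM (0.62) and the erythropoietin receptor gene Epor at 84.3 and 58.8 CPM (-0.52). Among 17 genes of haem synthesis and breakdown, which include the pathway upstream of Blvrb, 0 were at least 2-fold lower and 2 higher, with a median of -0.04. Those 2 were Alas2 and Hmox1, named after their values were seen, and 50 of the 52 Alas2 UMIs of the B-ALL environment lay in cells rich in globin or Igkc RNA. Hmox1 had only 11 control and 9 B-ALL environment UMIs, 1.49 (0.04 to 2.89). Without the globin- or Igkc-rich cells it was at 0.92 (-0.80 to 2.48), and 0 of 16 tested genes of this list were at least 2-fold higher. Tspo, the relative of Tspo2, was at 405 and 281 CPM (-0.53), and Alas1 at 37 and 24.1 CPM (-0.62).

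The closest relatives of single genes were mixed. Of 2 other aquaporin genes, Aqp11 went from 68 to 24.1 CPM (-1.50) and Aqp9 from 52.9 to 37.5 CPM (-0.50). Of 5 tested carbonic anhydrase genes, 1 was at least 2-fold lower and 0 higher, with a median of 0.19, and Car3 was at 11.6 and 18.2 CPM (0.65). Among 5 sodium pump genes, 1 was at least 2-fold lower and 1 higher, and Fxyd5, a pump regulator, was at 57.7 and 116 CPM (1.01). Of 16 genes that make, move or sense sphingosine 1-phosphate, 0 were at least 2-fold lower and 3 higher, and the exporter gene Spns2 went from 27.6 to 57 CPM (1.05) where Sphk1 was lower. The 9 tested genes of lysine and tryptophan breakdown, the pathway that Slc25a21 serves, held 0 genes past 2-fold in either direction, with a median of 0.03. Both tested butyrophilin genes were higher, Btnl9 at 6.82 and 13.3 CPM (0.97). The other gene had 23 of its 47 B-ALL environment UMIs in the cells rich in globin or Igkc RNA. Without these cells its log2 fold was 0.54 (-0.21 to 1.26).

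Marker sums of other cell types differed between the groups within the class as well. The erythroid markers themselves were nearly level in the class, 1335 CPM in the control and 1227 CPM in the B-ALL environment when the 14 measured markers were summed, with 1 at least 2-fold lower (Trib2), 2 higher and a median of -0.07 (-0.32, with 3 of 13 at least 2-fold lower, without the cells rich in globin or Igkc RNA). Their median share of a cell's UMIs was 0.123% in the control against 0.0806% in the B-ALL environment. The 15 HSC markers summed to 207 CPM in the control and 396 CPM in the B-ALL environment, with Rarb at 0 in the latter. For the 10 multipotent progenitor markers the sums were 1085 CPM in the control and 1472 CPM in the B-ALL environment, with none at 0. The 14 measured of 15 megakaryocyte markers summed to 78.8 CPM in the control and 187 CPM in the B-ALL environment, with Ppbp at 0 in both groups and Clec1b in the control. The 3 measured of 9 T and NK cell markers summed to 68.5 CPM in the control and 199 CPM in the B-ALL environment, and the 10 neutrophil progenitor markers, with Fcnb at 0 in both groups, to 679 CPM in the control and 431 CPM in the B-ALL environment. The 4 measured of 9 B cell markers, with Igll1 at 0 in both groups, summed to 11.9 CPM in the control against 20.01 CPM. In that order of groups, monocyte progenitor markers summed to 49.98 and 26.4 CPM and lymphoid-primed markers to 17.8 and 8.47 CPM. Dendritic cell markers were at 171 and 142 CPM, and basophil and mast cell markers at 93.5 and 81.8 CPM. Macrophage markers were at 2.25 and 6.16 CPM, and stromal and endothelial markers at 14.3 and 18.2 CPM. Whether cells of an earlier stage in the class or RNA of other cells had a part in the lower levels of the 10 genes was not tested.

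The erythroid-like class, 7 other named classes and 4 unnamed clusters, 12 in all, gave 24 points that share 2 pooled samples and their depth. Of the 12, unnamed cluster 13 held only 21 control and 32 B-ALL environment cells. As a description over these points, the profile of the 10 genes was also set against 11148 other genes. The genes most like their mean profile were Col5a1 (Pearson's r 0.983), a collagen chain, Cyth3 (0.957), Aldh1a7, Prss50, Myo1d, 4933431E20Rik, Smim1, Reps2, Abcb4 and Ank1 (0.942), the last an ankyrin of the red cell skeleton that was also among the naming markers. Within erythroid-like cells Col5a1 went from 79.6 to 37.7 CPM (-1.08) and Prss50 from 83.4 to 32.6 CPM (-1.36), whereas Cyth3 was at 154 and 129 CPM (-0.26). Of the 10 genes themselves, Car2 was least like the mean they enter (r 0.666), Sphk1 had 0.883, and the other 8 lay between 0.909 and 0.963.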

How the data were processed

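Host KIT+, lineage-negative marrow cells were measured with the 10x Chromium 3' kit, version 3. The submitters' processing notes list mm10, Cell Ranger 4 and Seurat 4.0.1. The deposited matrix holds raw UMI counts, and a cell table by the authors adds a group prefix, totals and map coordinates. For 100% of the 11764 cells the matrix summed to the deposited total. The prefix "tm" was read as the tumor environment. Filters of genes and cells, and the handling of strand, were not given in the sources used here. Car1, Slc25a21 and Sphk1 overlap annotated genes that have no row in the matrix.

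The 10 genes, the gene lists and the markers were chosen with earlier results of these data known. Named genes were the 10 members, up to 4 genes of each list with the largest fold at a mean of at least 10 CPM in erythroid-like cells, and the 10 most similar profiles. Some genes of the lists are not reported by name here. Leiden clusters were made on the map coordinates (scanpy 1.11.5, leidenalg 0.10.2, 30 neighbours, resolution 0.3). Each took the name of its most enriched marker list, if the mean log2 enrichment was at least 0.5 with 3 markers detected in 10% of cells and the leading genes did not favour another list. Scrublet called 6 and 3 cells, too few for a working caller, and no cell was removed. Summed UMIs of a class were scaled with TMM factors from edgeR 4.0.16 in R 4.3.3, and genes were filtered by filterByExpr. Log2 folds have exact conditional Poisson intervals and shares have Clopper-Pearson intervals (scipy 1.17.1). A gene was called at 2-fold. With 1 sample per group, no edgeR or DESeq2 test could be run. The fold calculation was tested on simulated counts. Alternatives were DESeq2 1.42.0 size factors, thinning to 3000 UMIs, finer or centred clusters, a marker share of at least 0.2%, equal cells per subcluster, and removal of shallow, globin-rich or possibly doublet cells.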

Additional observations from a re-analysis of the deposited data

Results flagged for a closer look

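Car2 moved in opposite directions within and outside the erythroid-like class: its log2 fold was -0.39 within the class and 0.79 outside it, with both counting intervals clear of 0. The outside value pools classes whose cell numbers differed: there were 517 control HSC-like cells against 1414 with B-ALL, where the Car2 fold was 0.11, and 482 control megakaryocyte-like cells against 913, where it was 0.21. The difference between the folds within and outside the class was not tested, because each group was 1 pooled sample.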

How the results depend on the processing

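No paired analysis was possible because the cells carry no sample number, so neither a replicate block nor leaving out a sample could be run. The count of genes at least 2-fold lower within erythroid-like cells, 5, was 0 with a marker share of at least 0.2% (78 and 28 cells; median -0.01), where Car2 (0.37), Ermap (0.029), Aqp1 (0.089) and Blvrb (0.11) turned higher. It was 8 at marker shares of 0.06 to 0.12%, 0 at 0.12 to 0.24% and 1 in the subcluster with the highest marker share, alternatives added after the data were seen. For the marker share of at least 0.2% the share of all tested genes is not reported, so nothing is read from that count. The ratio of class shares, 0.246, was 0.290 with finer clusters and 0.359 with a marker share of at least 0.2%. With UMIs as deposited the mean number of the 10 genes per erythroid-like cell was 8.06 and 5.88. Car2 over all cells turned to 0.056 when cells were thinned, Rhag over all cells to 0.81 with equal class weights, and Car2 outside the class to -0.26 when the class was cut at a marker share of 0.2%. In each of these cases the cause was not tested. The other 31 recomputed counts, ratios and means stayed close to their first value. Of the single-gene values, 207 stayed within their counting interval, 126 left it, and 7 more were counted as a change of sign, as given above. Rhag outside the class, at -0.06 with an interval that included 0, was not among the 7, though its values ranged from -1.30 to 0.51. Depth limits Rhag, Slc25a21 and Sphk1 outside the class, where each group had at most 97 UMIs.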
